A study of Mus musculus with 102 samples.

Results

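The Hox genes are homeobox transcription factor genes that lie in 4 chromosomal clusters, HoxA on chromosome 6, HoxB on chromosome 11, HoxC on chromosome 15 and HoxD on chromosome 2 of the mouse. Genes whose symbol is Hoxa, Hoxb, Hoxc or Hoxd followed by a number were taken, provided that a probe set of the array named that gene and no other. This gave 33 genes of the 39 annotated in the clusters, out of 18193 genes with such a probe set. The other annotated genes were not analysed here as single genes. The 33 genes were covered by 48 probe sets, and each gene was represented by the probe set that varied most over the regions, so that measured values chose the probe set of the 11 genes that had several.

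The data are Affymetrix arrays of 51 regions of brain and spinal cord, 2 arrays each, from male Balb/c mice that were 7 to 8 weeks old, carried no genetic change and were sampled in light/dark cycles (LD) or in constant darkness (DD). Each region was punched from frozen slices, tissue of 6 time points of the day was combined, and 2 such pools per region, of 30 to 150 mice each, were hybridized separately. The regions set apart here were the anterior and the posterior part of the spinal cord, the medial vestibular nucleus (MVe), the pontine nucleus (Pn), the dorsal tegmental nucleus (Tg), 3 cerebellar regions and 5 mesencephalic regions (PAG, SC, IC, VTA and SN), all set against the forebrain, here the 35 regions of the telencephalon, hypothalamus and thalamus on 70 arrays. The spinal cord, MVe and Pn pools held tissue of 90 mice each. The study lists MVe under the pons and Tg under the mesencephalon, and connects the anterior cord with motor neurons and the posterior cord with touch. The segments from which the cord was taken are not given in the sources used here. Retina, pituitary and pineal gland were left out of the fit, which held 96 arrays of 48 regions. All values below are log2 array signals, so that a difference of 1 is a factor of 2, and a higher level of one probe set than of another carries no meaning. Each SE and p-value below uses, per probe set, 1 estimate of the spread that all 48 regions share. It therefore does not show how far the replicates of a given region lie apart, and the array values are to be read beside it.

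During development Hox genes are switched on along the body axis in the order in which they lie in their cluster, with low-numbered genes reaching into the hindbrain and high-numbered genes kept to the caudal cord, while most of the forebrain and midbrain stays free of them. Genes with the same number in different clusters are paralogues and often act together. The proteins bind DNA with Pbx and Meis partners and give hindbrain segments and spinal motor neurons their positional identity, and part of this expression persists in the adult.

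Promoter sequences are shown for 5 genes of which the differences were followed below and which represent the 4 clusters, as the 250 bases before the annotated start, 5′ to 3′ on the strand of the gene (RefSeq, build GRCm38.p6). Capitals mark AGGTCA read on either strand, the hexamer bound by retinoic acid receptors, which are known inducers of Hox genes in the embryonic hindbrain and cord.
*Hoxd3* chr2:74711743-74711992 (+ strand): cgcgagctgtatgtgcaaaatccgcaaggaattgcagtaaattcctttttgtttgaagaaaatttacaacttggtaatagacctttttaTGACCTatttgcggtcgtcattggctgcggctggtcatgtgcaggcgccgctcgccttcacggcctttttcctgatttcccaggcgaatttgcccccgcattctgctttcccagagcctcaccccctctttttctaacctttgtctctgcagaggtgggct
*Hoxb4* chr11:96318017-96318266 (+ strand): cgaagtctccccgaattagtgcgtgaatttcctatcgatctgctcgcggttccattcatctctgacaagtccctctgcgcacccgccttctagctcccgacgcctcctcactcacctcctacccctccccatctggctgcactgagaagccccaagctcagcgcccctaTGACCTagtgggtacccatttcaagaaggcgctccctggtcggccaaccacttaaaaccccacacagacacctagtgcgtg
*Hoxc4* chr15:103034145-103034394 (+ strand): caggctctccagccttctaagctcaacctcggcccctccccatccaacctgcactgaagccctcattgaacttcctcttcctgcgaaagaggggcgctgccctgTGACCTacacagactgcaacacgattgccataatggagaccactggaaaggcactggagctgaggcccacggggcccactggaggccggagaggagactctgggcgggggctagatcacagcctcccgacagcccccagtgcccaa
*Hoxd8* chr2:74704365-74704614 (+ strand): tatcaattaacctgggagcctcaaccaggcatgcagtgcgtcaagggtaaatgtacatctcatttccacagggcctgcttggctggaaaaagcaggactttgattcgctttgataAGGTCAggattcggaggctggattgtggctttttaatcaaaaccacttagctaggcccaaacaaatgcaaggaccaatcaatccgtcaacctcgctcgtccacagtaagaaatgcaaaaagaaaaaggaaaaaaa
*Hoxa9* chr6:52227371-52227620 (- strand): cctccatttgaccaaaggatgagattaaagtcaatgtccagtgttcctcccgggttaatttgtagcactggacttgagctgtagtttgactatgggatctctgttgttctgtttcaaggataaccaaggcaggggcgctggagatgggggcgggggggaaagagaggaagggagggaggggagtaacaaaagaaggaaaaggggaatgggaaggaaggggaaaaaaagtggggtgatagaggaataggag
Of the 33 genes, 19 matched a RefSeq promoter. AGGTCA was present in 5 of the 19 (26.3%), which were *Hoxd3*, *Hoxd8*, *Hoxd10*, *Hoxb4* and *Hoxc4*, and in 14.02% of all 32851 promoters of the same length. *Hoxa9* is shown as one without it. The homeodomain core TAATTA was found in *Hoxd11* alone (5.26% of the 19, 4.84% of all), the joint Pbx and Hox element TGATTNAT in *Hoxa2* alone (5.26% of the 19, 2.82% of all), and the Cdx element TTTATNG in 0 of the 19 (9.81% of all), each searched on both strands and with no overlap asked between motifs. The median GC content was 58.0% for the Hox promoters and 52.4% for all, and the median number of CpG dinucleotides was 12 and 6. These matches describe the letters of the windows only.

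Hox genes of paralogue groups 2 to 5 were higher in the spinal cord, Pn and MVe than in the forebrain, and those of groups 6 to 9 mostly in the cord, while in the 5 mesencephalic and the 3 cerebellar regions the counts of Hox genes called were below the background. In the spinal cord (both parts, 4 arrays) 21 of 33 genes (63.6%) were higher than in the forebrain and 0 were lower, where 19.2% of all 45037 probe sets were higher and 23.5% lower (limma, adjusted p under 0.05). In MVe 12 of 33 (36.4%) were higher and 0 lower, against 14.2% and 15.2% of all probe sets. In Pn 16 of 33 (48.5%) were higher and 0 lower, against 20.9% and 16.6% of all. The 11 genes with several probe sets entered by their most variable one. The shares of all probe sets hold no such choice, so the comparison is not like for like. Counts without that choice are given below. At an unadjusted p under 0.05 the counts were 21 higher in the cord, 12 in MVe and 18 in Pn, and 0 lower in each. The median difference from the forebrain over the 33 genes was 0.77 in the cord, 0.11 in MVe and 0.18 in Pn, beside -0.03, -0.01 and 0.04 over all probe sets. In the cord 18 genes had all 4 arrays above all 70 forebrain arrays, which held for 0.815% of all probe sets. In Pn 11 genes and in MVe 10 genes had both arrays above all 70, against 1.33% and 1.45% of all. No Hox gene reached this in any of the other 9 regions between forebrain and cord. The share of all probe sets was not computed for those regions, so this count is not read as a result about Hox genes. In tissue punches a higher signal may come from more cells that express the gene or from more RNA per cell, which cannot be told apart.

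**Figure D1:**
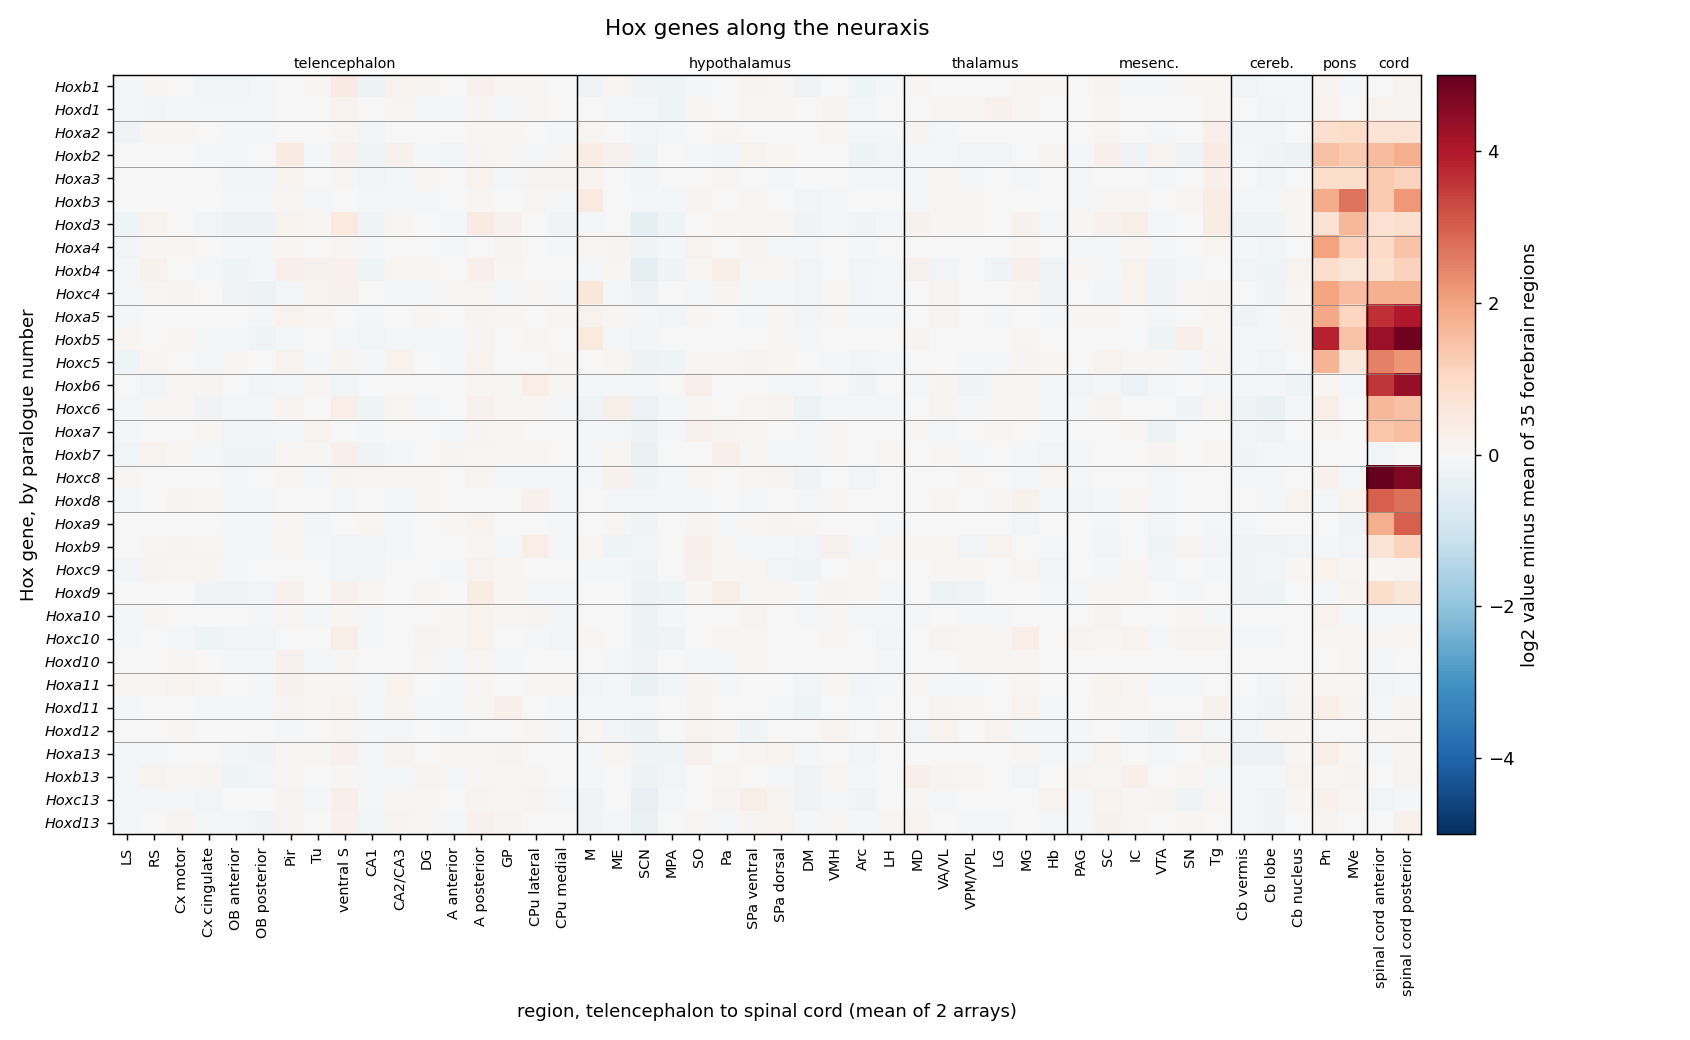
Mean log2 level of the 33 Hox genes (rows, ordered by paralogue number) in the 48 regions (columns, along the neuraxis), drawn as the difference from the forebrain mean of the gene. The 11 genes of paralogue groups 2 to 5 are raised in Pn, MVe and both cord parts, 9 of the 10 genes of groups 6 to 9 were higher in the cord, and groups 10 to 13 stay near the forebrain level.

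By paralogue number, the 11 genes of groups 2 to 5 were all higher in the cord, in MVe and in Pn, with median differences of 1.70, 1.16 and 1.68. Of the 10 genes of groups 6 to 9, 9 were higher in the cord (median 1.50), 1 in MVe (median -0.00) and 2 in Pn (median 0.05). Of the 10 genes of groups 10 to 13, 0 were called in the cord (median 0.04, and 0 at an unadjusted p under 0.05), 0 in MVe and 3 in Pn (median 0.11). *Hoxa7*, *Hoxa9*, *Hoxb6*, *Hoxb9*, *Hoxc8*, *Hoxd1* and *Hoxd9* were called higher in the cord and in neither Pn nor MVe. The 3 comparisons share the forebrain arrays, and the direct tests of the cord against MVe and of MVe against Pn are given below. *Hoxb1*, *Hoxb7*, *Hoxb13*, *Hoxa11*, *Hoxc10*, *Hoxc13*, *Hoxd10*, *Hoxd12* and *Hoxd13* passed in none of the 3.

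**Figure D2:**
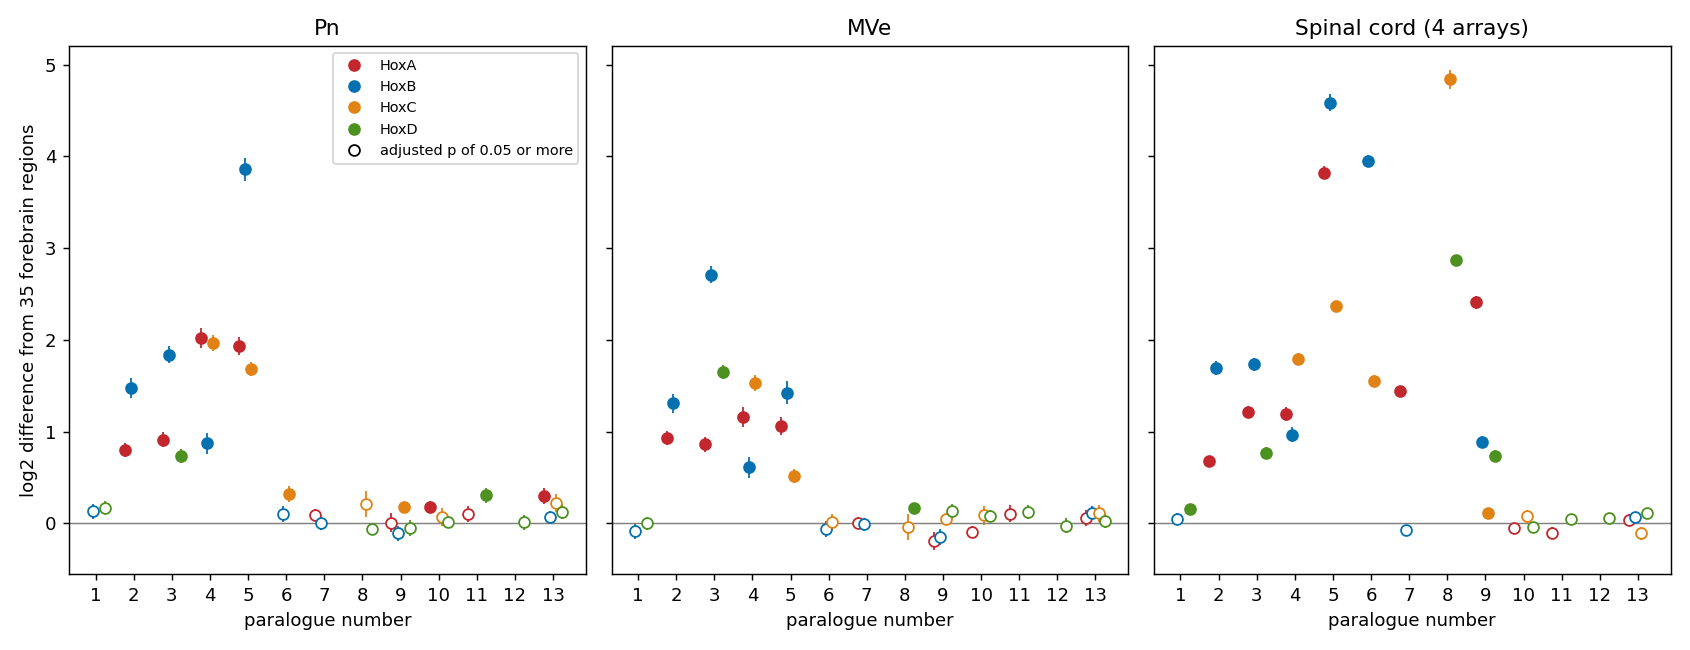
Difference from the forebrain mean (log2, with its standard error) of each Hox gene in the spinal cord, MVe and Pn against its paralogue number. In Pn and MVe the 11 genes of groups 2 to 5 lie above all others, and in the cord the high points reach to group 9, with the largest at Hoxc8 (4.84). Open points have an adjusted p of 0.05 or more.

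Paralogue group 1 was almost flat. *Hoxb1*, which specifies facial motor neurons in the embryonic hindbrain, read 5.40 and 5.38 on the anterior cord arrays, 5.63 and 5.46 on the posterior cord arrays, 5.20 and 5.46 in MVe and 5.66 and 5.44 in Pn, all within the forebrain range of 5.03 to 5.85 (median 5.40). *Hoxd1*, known in mice for a role in nociceptive sensory circuits, read 5.32, 5.30, 5.25 and 5.26 on the 4 cord arrays and 4.88 to 5.57 (median 5.12) in the forebrain. These ranges overlapped, and its difference of 0.15 ± 0.05 (SE, adjusted p = 0.013) was lost (adjusted p = 0.058) without replicate 1 of the anterior or replicate 2 of the posterior cord.

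Group 2 was raised in the cord, MVe and Pn. *Hoxa2*, needed for the migration of pontine neurons in mice, read 5.39 and 5.52 in the anterior cord, 5.47 and 5.49 in the posterior cord, 5.46 and 5.97 in MVe and 5.50 and 5.66 in Pn, against 4.57 to 5.08 (median 4.78) on the forebrain arrays. Every one of these 8 arrays lay above all 70 of the forebrain. The differences were 0.68 ± 0.05 (SE, adjusted p = 4.4e-16) in the cord, 0.93 ± 0.08 (SE, adjusted p = 4.3e-15) in MVe and 0.80 ± 0.08 (SE, adjusted p = 6.2e-13) in Pn. *Hoxb2*, which acts with *Hoxb1* in facial motor neuron development, read 8.46 and 8.38 in the anterior cord, 8.53 and 8.83 in the posterior cord, 8.18 and 8.14 in MVe and 7.92 and 8.74 in Pn, against 6.52 to 7.33 (median 6.83) in the forebrain. Here too the groups did not overlap, and the cord difference was 1.70 ± 0.08 (SE, adjusted p = 1.1e-26), a factor of 3.24.

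Group 3 held the 2 genes, *Hoxb3* and *Hoxd3*, that were higher in MVe than in the mean of the 2 cord parts. *Hoxb3*, a hindbrain patterning gene, read 8.21 and 9.01 in MVe and 7.52 and 7.96 in Pn. On the cord arrays it read 7.24 and 7.18 in the anterior and 7.84 and 8.28 in the posterior part, and the forebrain arrays lay at 5.70 to 6.42 (median 5.88). All of the MVe, Pn and cord arrays were above the forebrain, and the MVe arrays were above those of the anterior cord and of Pn. They overlapped with the posterior cord, where the array at 8.28 lay above the MVe array at 8.21. On the other *Hoxb3* probe set the step between cord and MVe did not pass, as given below. The difference from the forebrain was 2.71 ± 0.09 (SE, adjusted p = 5.6e-31) in MVe, a factor of 6.55, and 1.73 ± 0.07 (SE, adjusted p = 9.5e-30) in the cord. *Hoxd3* had its highest arrays in MVe as well, at 7.69 and 7.55, with 6.64 and 6.77 in Pn and 6.75, 6.65, 6.71 and 6.86 on the 4 cord arrays, against 5.47 to 6.53 (median 5.94) in the forebrain. No forebrain array reached any of these, and the differences were 1.65 ± 0.08 (SE, adjusted p = 2.0e-24) in MVe, 0.74 ± 0.08 (SE, adjusted p = 2.9e-11) in Pn and 0.77 ± 0.06 (SE, adjusted p = 1.4e-17) in the cord. *Hoxa3*, required for pharyngeal organs in mice, read 6.89, 7.15, 6.71 and 6.96 in the cord, 6.61 and 6.55 in MVe and 6.41 and 6.84 in Pn, against 5.48 to 6.13 (median 5.70) in the forebrain. Its arrays were again apart from the forebrain, by 1.22 ± 0.06 (SE, adjusted p = 2.1e-25) in the cord.

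Group 4 was raised in Pn, MVe and the cord. *Hoxa4* read 6.80 and 7.29 in Pn, 5.76 and 6.62 in MVe and 5.74, 6.27, 6.24 and 6.65 in the cord, against 4.80 to 5.30 (median 5.02) in the forebrain. *Hoxc4* read 9.12 and 9.16 in Pn, 8.51 and 8.91 in MVe and 8.92, 9.02, 8.88 and 9.05 in the cord, against 6.76 to 7.85 (median 7.17) in the forebrain. For both genes all 8 arrays lay above all 70 of the forebrain. *Hoxa4* differed by 2.02 ± 0.11 (SE, adjusted p = 7.1e-23) in Pn and 1.20 ± 0.08 (SE, adjusted p = 5.8e-20) in the cord, and *Hoxc4* by 1.96 ± 0.08 (SE, adjusted p = 6.7e-27) in Pn and 1.79 ± 0.06 (SE, adjusted p = 2.8e-32) in the cord. *Hoxb4*, known for its action in blood stem cells, read 7.37, 7.69, 7.93 and 7.86 in the cord, 7.10 and 7.62 in MVe and 7.29 and 7.94 in Pn, against 6.15 to 7.25 (median 6.74) in the forebrain. One MVe array fell within the forebrain range, and the MVe difference of 0.61 ± 0.11 (SE, adjusted p = 1.2e-05) was 0.35 (adjusted p = 0.10) without replicate 2 of MVe.

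Group 5 showed large differences between the places, with MVe below both Pn and the cord. *Hoxb5* read 9.73 and 10.35 in the anterior cord, 10.43 and 10.72 in the posterior cord, 9.16 and 10.002 in Pn and 6.70 and 7.58 in MVe, against 5.44 to 6.40 (median 5.70) on the forebrain arrays. The MVe arrays were above the forebrain and below those of Pn and cord. The differences were 4.59 ± 0.09 (SE, adjusted p = 4.8e-44) in the cord, a factor of 24, 3.86 ± 0.12 (SE, adjusted p = 1.6e-32) in Pn, a factor of 14.5, and 1.42 ± 0.12 (SE, adjusted p = 4.2e-14) in MVe. *Hoxa5*, which with *Hoxc5* maintains phrenic motor neurons in mice, read 8.65, 8.89, 8.97 and 9.28 in the cord, 6.79 and 7.33 in Pn and 5.74 and 6.64 in MVe, against 4.94 to 5.34 (median 5.11) in the forebrain. *Hoxc5* read 7.49, 7.69, 7.19 and 7.30 in the cord, 6.72 and 6.75 in Pn and 5.60 and 5.53 in MVe, against 4.67 to 5.33 (median 5.05) in the forebrain. By level, the order cord, Pn, MVe, forebrain held for both genes with no overlap between neighbours in that order. *Hoxa5* differed by 3.82 ± 0.07 (SE, adjusted p = 2.5e-45) in the cord, a factor of 14.1, and *Hoxc5* by 2.37 ± 0.05 (SE, adjusted p = 2.1e-40), a factor of 5.15.

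**Figure D3:**
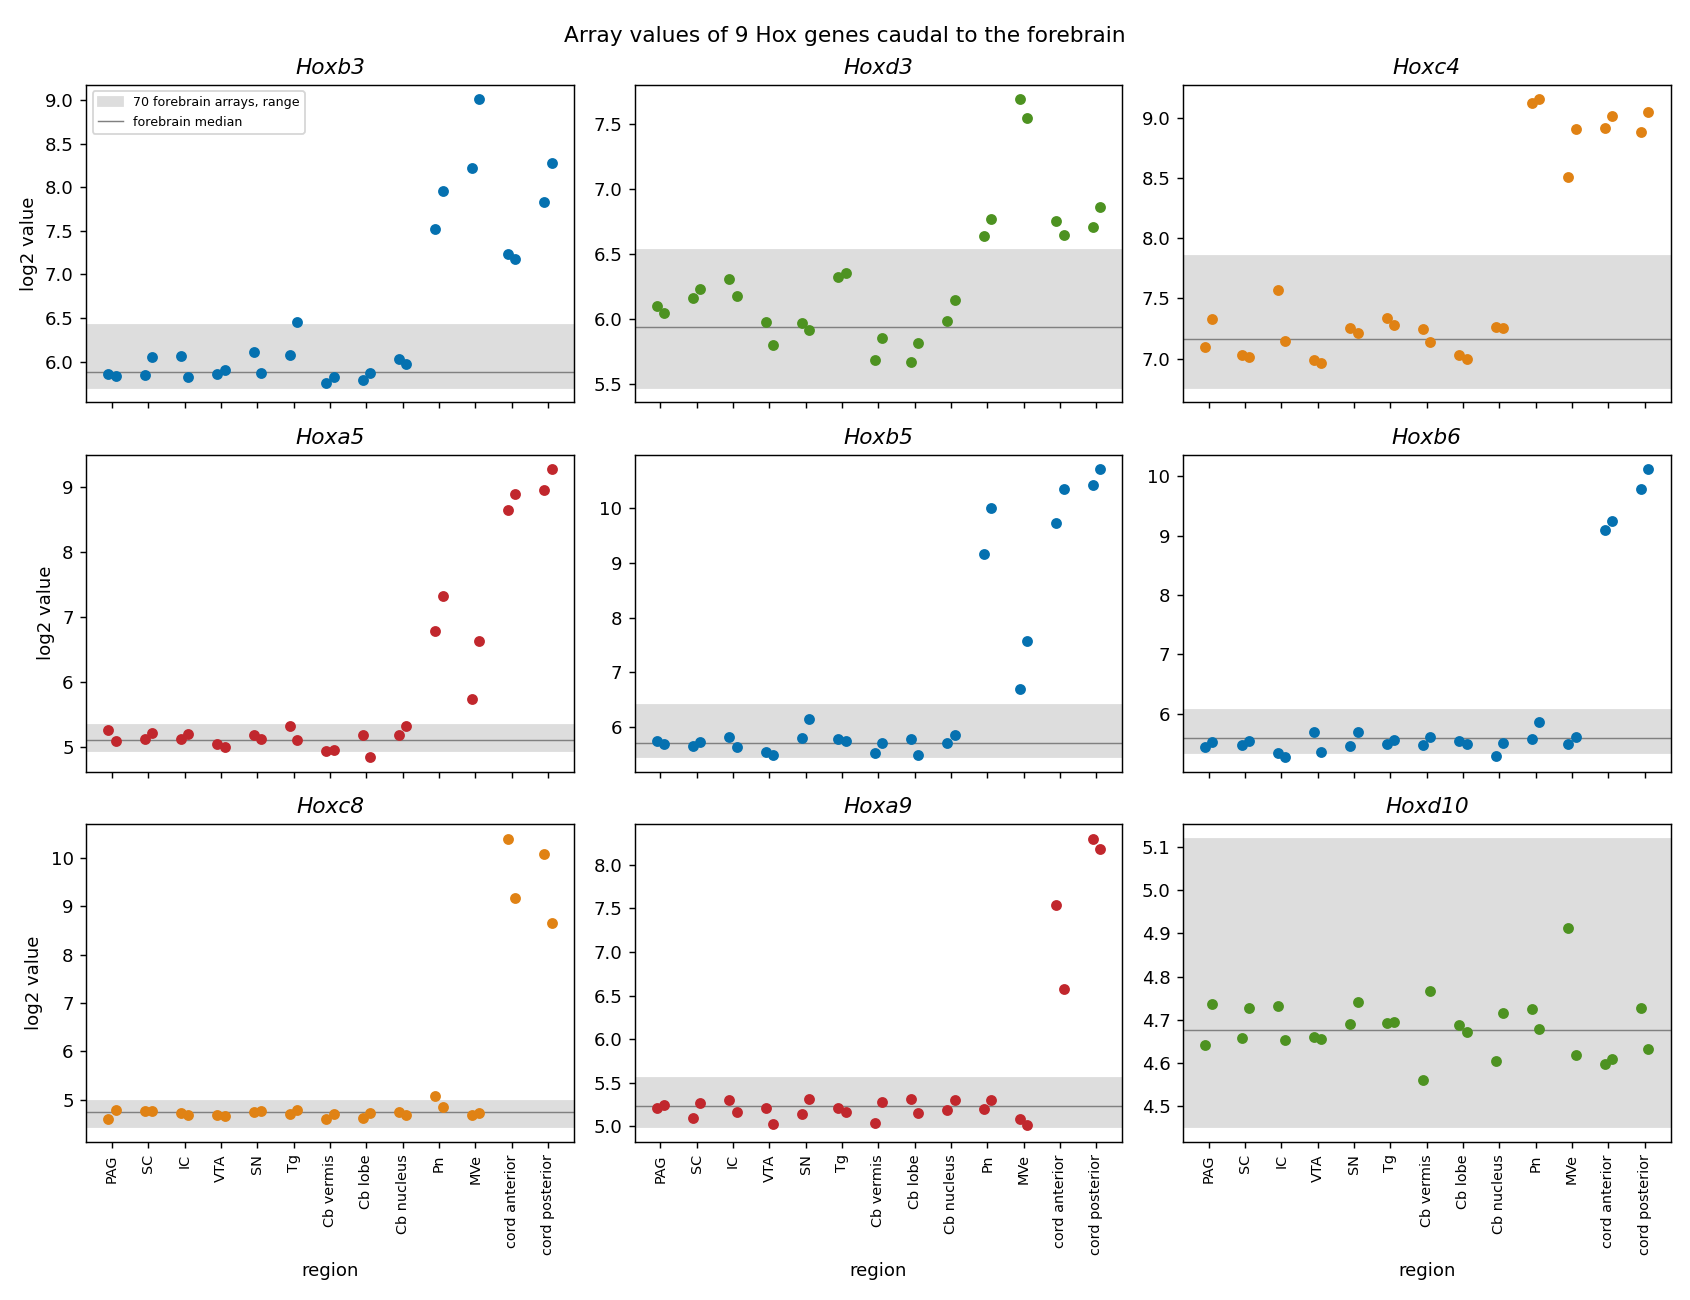
Log2 value of 9 Hox genes on both arrays of each of the 13 regions caudal to the forebrain, with the range of the 70 forebrain arrays as a grey band and their median as a line. Hoxb5 lies above the band in Pn, MVe and both parts of the cord, the cord arrays of Hoxb6, Hoxc8 and Hoxa9 stand alone at 6.58 or more, and Hoxd10 stays within the band.

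In groups 6 to 9 the signal was in the cord. *Hoxb6* read 9.09 and 9.24 in the anterior cord, 9.78 and 10.12 in the posterior cord, 5.49 and 5.60 in MVe and 5.57 and 5.85 in Pn, against 5.34 to 6.07 (median 5.59) in the forebrain. *Hoxc8*, which sets motor pool identity of the brachial cord in mice, read 10.40 and 9.18 in the anterior cord, 10.09 and 8.66 in the posterior cord, 4.68 and 4.72 in MVe and 5.07 and 4.84 in Pn, against 4.43 to 4.98 (median 4.75) in the forebrain. For *Hoxc8* the pools of the first replicate were high and those of the second low in both parts of the cord, all far above the forebrain. The cord differences were 4.84 ± 0.10 (SE, adjusted p = 1.8e-42) for *Hoxc8*, a factor of 28.7 and the largest of the 33 genes, and 3.95 ± 0.06 (SE, adjusted p = 3.4e-49) for *Hoxb6*, a factor of 15.5. The SE of *Hoxc8* comes from the spread shared by all regions and is small beside the gap between its cord replicates. *Hoxd8* read 8.11, 8.19, 7.99 and 7.90 in the cord, 5.15 and 5.53 in MVe, 5.18 and 5.05 in Pn and 5.30 and 5.39 in Cb nucleus, against 5.01 to 5.44 (median 5.16) in the forebrain. Only the cord was apart, by 2.87 ± 0.04 (SE, adjusted p = 3.4e-49), and the MVe call of 0.16 ± 0.06 (SE, adjusted p = 0.035) rested on replicate 2, without which the difference was -0.02.

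Smaller cord differences were found in the same groups. *Hoxa7* read 9.58, 9.42, 9.76 and 9.52 in the cord, against 7.77 to 8.39 (median 8.12) in the forebrain, a difference of 1.44 ± 0.05 (SE, adjusted p = 1.4e-32). *Hoxc6*, which marks the forelimb level of the cord in mice, read 9.25, 9.46, 9.31 and 9.05 in the cord and 7.97 and 8.09 in Pn, against 7.36 to 8.12 (median 7.72) in the forebrain. The cord arrays did not overlap with the forebrain, with a difference of 1.56 ± 0.06 (SE, adjusted p = 2.9e-29), whereas the Pn arrays lay inside its range, and the Pn call of 0.32 ± 0.09 (SE, adjusted p = 0.0023) was lost without replicate 2 of Pn (0.26, adjusted p = 0.12). *Hoxa9* read 7.54 and 6.58 in the anterior cord, 8.30 and 8.18 in the posterior cord, 5.08 and 5.01 in MVe and 5.19 and 5.30 in Pn, against 4.99 to 5.56 (median 5.23) in the forebrain, and differed in the cord by 2.41 ± 0.07 (SE, adjusted p = 4.8e-35). *Hoxb9* read 7.15, 6.75, 7.19 and 7.59 in the cord, against 5.95 to 6.68 (median 6.25) in the forebrain, a difference of 0.89 ± 0.06 (SE, adjusted p = 2.2e-19) with no overlap. *Hoxd9* read 7.96, 7.68, 7.84 and 7.18, against 6.60 to 7.42 (median 6.93), and 1 posterior array fell within the forebrain range. *Hoxc9*, a thoracic motor column gene in mice, read 8.46, 8.45, 8.63 and 8.40 in the cord and 8.52 and 8.57 in Pn. All lay within its forebrain range of 8.13 to 8.65 (median 8.38). Its differences were 0.12 ± 0.04 (SE, adjusted p = 0.015) in the cord and 0.18 ± 0.06 (SE, adjusted p = 0.012) in Pn. Both fell short against forebrain regions of the same sampling period (adjusted p = 0.36 and 0.14). The cord difference of *Hoxc9* was 0.06 without replicate 1 of the posterior cord and 0.12 without either anterior replicate. In Pn it was 0.20 without replicate 1 and 0.15 without replicate 2. *Hoxb7* read 5.87, 6.02, 6.17 and 6.02 in the cord, against 5.66 to 6.39 (median 6.10), and was the member of groups 6 to 9 that did not pass.

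Groups 10 to 13 gave no cord call. *Hoxd10* and *Hoxc10*, which specify lumbar motor neurons in mice, differed in the cord by -0.04 ± 0.05 and 0.08 ± 0.07 (SE), and *Hoxd10* read 4.60, 4.61, 4.73 and 4.63 there, against 4.45 to 5.12 (median 4.68) in the forebrain. The cord difference over the 10 genes lay between -0.11 and 0.11. In Pn, *Hoxa10*, *Hoxd11* and *Hoxa13* passed. *Hoxa10* read 5.63 and 5.60 in Pn, against 5.12 to 5.68 (median 5.43) in the forebrain. *Hoxd11* read 5.48 and 5.69, against 5.05 to 5.59 (median 5.26), and *Hoxa13*, a limb and genital tract gene, read 6.73 and 6.85, against 6.22 to 6.81 (median 6.48). Each of the 3 had at least 1 Pn array within the forebrain range. The differences were 0.18 ± 0.07 (SE, adjusted p = 0.028), 0.31 ± 0.08 (SE, adjusted p = 0.0015) and 0.30 ± 0.09 (SE, adjusted p = 0.006), and all 3 calls were lost without replicate 2 of Pn (adjusted p = 0.12 for *Hoxa10*, 0.18 for *Hoxd11* and 0.16 for *Hoxa13*). That of *Hoxa10* was also lost without replicate 1 of Pn (adjusted p = 0.24), after cyclic loess normalization (adjusted p = 0.11) and against the telencephalic regions only (adjusted p = 0.067).

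MVe and Pn were compared directly, since the study groups both with the pons and both were high in groups 2 to 5. In MVe 2 of 33 genes were higher than in Pn (6.06%) and 6 lower (18.2%), against 8.09% and 9.87% of all probe sets. The genes higher in MVe were the group 3 genes *Hoxd3*, by 0.91 ± 0.11 (SE, adjusted p = 6.5e-09), and *Hoxb3*, by 0.87 ± 0.13 (SE, adjusted p = 1.0e-06). On the other *Hoxb3* probe set the difference was 0.04. All 3 measured genes of group 5 were lower in MVe, *Hoxb5* by -2.44 ± 0.17 (SE, adjusted p = 2.2e-16), *Hoxc5* by -1.17 ± 0.11 (SE, adjusted p = 1.4e-12) and *Hoxa5* by -0.87 ± 0.14 (SE, adjusted p = 2.9e-06), the last of which was 0.19 on the *Hoxa5* probe set with the higher mean. *Hoxa4* differed by -0.86 ± 0.15 (SE, adjusted p = 2.3e-05), *Hoxc4* by -0.43 ± 0.12 (SE, adjusted p = 0.007) and *Hoxa10* by -0.27 ± 0.09 (SE, adjusted p = 0.029). The calls of *Hoxa4* and *Hoxc4* were lost without replicate 1 of MVe (-0.43 and -0.23), that of *Hoxc4* also without replicate 2 of Pn (adjusted p = 0.053), and that of *Hoxa10* without replicate 2 of MVe (-0.16) or either replicate of Pn. In group 2, *Hoxa2* differed by 0.13 ± 0.11 and *Hoxb2* by -0.17 ± 0.15 (SE), neither past the threshold. Leptomeningeal markers moved with Pn: all 10 were higher there than in the forebrain (median 0.96), with a mean level of 8.55 to 9.17 in Pn, and 0 of 10 were higher in MVe. Markers of cerebellar granule and Purkinje cells moved with MVe, 7 of 8 higher (median 1.45, mean level 8.11 to 8.59 in MVe, against 5.98 to 7.85 in the forebrain). The part of either in the Hox differences was not tested.

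**Figure D4:**
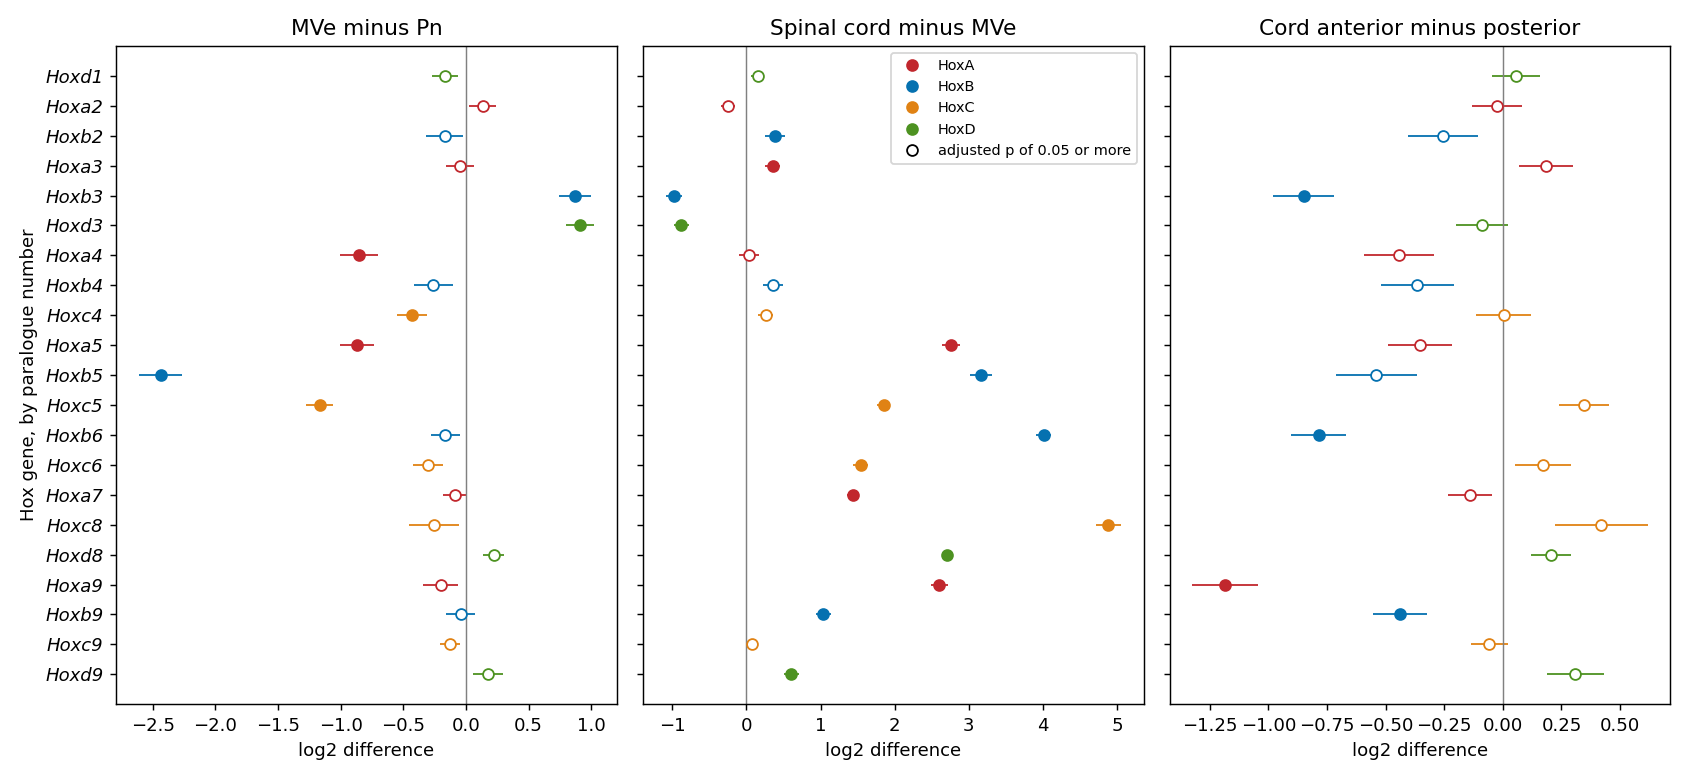
Log2 differences with standard errors of the 21 Hox genes that were higher in the cord, for MVe minus Pn, spinal cord minus MVe, and anterior minus posterior cord. Hoxb3 and Hoxd3 are higher in MVe than in the mean of both cord parts and than in Pn. The group 5 genes are lower in MVe than in the cord and in Pn. All 6 HoxB genes shown have a lower mean in the anterior than in the posterior cord, 3 of them past the threshold (filled).

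Between the cord and MVe, 13 genes were higher in the cord (39.4%) and 2 lower (6.06%), against 6.27% and 4.29% of all probe sets. The genes that were higher included 8 of the 10 of groups 6 to 9, *Hoxc8* by 4.88 ± 0.17 (SE, adjusted p = 3.0e-30), *Hoxb6* by 4.01 ± 0.10 (SE, adjusted p = 3.9e-37) and *Hoxd8* by 2.71 ± 0.07 (SE, adjusted p = 7.5e-36) with the largest differences. All 3 measured genes of group 5 were higher too, by 3.16 for *Hoxb5*, 2.76 for *Hoxa5* and 1.85 for *Hoxc5*. *Hoxb3* and *Hoxd3* were lower in the cord, by -0.98 ± 0.11 (SE, adjusted p = 1.1e-09) and -0.88 ± 0.10 (SE, adjusted p = 2.8e-10). The 2 probe sets shared by *Hoxd4* and *Hoxd3* differed in direction in this step and are given below. On the probe sets with the higher mean *Hoxb3* differed by -0.32 (adjusted p = 0.083), *Hoxa9* by 0.15 (adjusted p = 0.36) and *Hoxa3* by 0.04 (adjusted p = 0.86). The calls of *Hoxb2* (0.39) and *Hoxa3* (0.35) were lost without either replicate of MVe. That of *Hoxb2* was also lost without either anterior replicate or replicate 2 of the posterior cord, where it was lowest at 0.31 (adjusted p = 0.18), and that of *Hoxa3* without replicate 2 of the anterior (0.29, adjusted p = 0.080) or of the posterior cord (0.29, adjusted p = 0.076). The group 4 genes and *Hoxa2* did not pass in this step, with differences of 0.03 ± 0.13 for *Hoxa4*, 0.35 ± 0.13 for *Hoxb4*, 0.26 ± 0.10 for *Hoxc4* and -0.25 ± 0.09 for *Hoxa2* (SE).

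The study connects the anterior part with motor neurons and the posterior part with touch, so the 2 parts may be ventral and dorsal rather than rostral and caudal. Of 7 motor neuron markers 5 were higher and 0 lower in the anterior part, and of 8 dorsal horn markers 0 were higher and 4 lower there. The segments are not given, so whether the parts also differ along the neuraxis cannot be told. The Hox differences between them are therefore not read as a step along the neuraxis. The anterior and posterior cord differed in few genes, 0.784% of all probe sets higher and 0.908% lower in the anterior part, and in 4 of the 33 Hox genes (12.1%), all lower in the anterior part. At an unadjusted p under 0.05, 4 were higher and 8 lower (limma). *Hoxa9* read 7.54 and 6.58 in the anterior cord, against 8.30 and 8.18 in the posterior cord, -1.18 ± 0.14 (SE, adjusted p = 2.1e-08) apart. *Hoxb3* differed by -0.85 ± 0.13 (SE, adjusted p = 1.4e-05), *Hoxb6* by -0.79 ± 0.12 (SE, adjusted p = 8.8e-06) and *Hoxb9* by -0.44 ± 0.12 (SE, adjusted p = 0.028). For *Hoxa9*, *Hoxb3* and *Hoxb6* both anterior arrays lay below both posterior arrays, as they did for *Hoxb9*. Among the genes higher in the cord than in the forebrain, all 6 of HoxB had a lower anterior mean (median difference -0.49, range -0.85 to -0.25), as had 5 of 6 of HoxA (median -0.25), 1 of 5 of HoxC (median 0.17, range -0.06 to 0.42) and 1 of 4 of HoxD (median 0.13). This difference between clusters was not tested. The 2 pools of one collection day moved together, with a correlation of 0.369 between the deviations of the anterior and the posterior arrays over 45037 probe sets. With the day as a pair, an alternative chosen after the data were seen, 5 Hox genes passed, among them *Hoxc8*, which was 0.42 higher in the anterior cord (adjusted p = 0.0017), and *Hoxb9* (adjusted p = 0.030). On the *Hoxa9* probe set with the higher mean the difference was -0.21 (adjusted p = 0.36), and *Hoxb9* was lost without replicate 2 of either part.

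The marker lists differed between the 2 cord parts. Of 7 measured motor neuron markers 5 were higher in the anterior part and 0 lower, with a mean level of 8.39 to 8.45 there and 7.28 to 7.37 in the posterior part, *Prph* by 2.03, *Slc18a3* by 1.97 and *Slc5a7* by 1.62. Of 8 dorsal horn markers 0 were higher and 4 lower in the anterior part, with a mean level of 8.03 to 8.09 there and 8.55 to 8.60 in the posterior part, *Tac1* by -1.40 and *Nmu* by -0.92. Of 10 leptomeningeal markers 0 were higher and 2 lower in the anterior part, *Ogn* by -1.40 and *Igf2* by -0.78 (median of the list -0.36), with a mean level of 7.94 to 7.99 there and 8.35 to 8.39 in the posterior part. The part of these cell types in the Hox differences was not tested.

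In Tg 6 genes were higher than in the forebrain (18.2%) and 0 lower, near the background of 15.6% and 13.9% (0 lower also at an unadjusted p under 0.05). They were the group 2 and 3 genes *Hoxa2*, *Hoxb2*, *Hoxa3*, *Hoxb3* and *Hoxd3*, and *Hoxd11*. *Hoxb2* read 7.14 and 7.36 in Tg, *Hoxb3* 6.08 and 6.46, *Hoxd3* 6.32 and 6.35, *Hoxa2* 5.15 and 4.94, *Hoxa3* 5.91 and 6.02 and *Hoxd11* 5.71 and 5.30. In each case at least 1 of the 2 arrays lay within the forebrain range given above. The differences were 0.39 ± 0.11 (SE, adjusted p = 0.0032) for *Hoxb2*, 0.37 ± 0.09 (SE, adjusted p = 0.0016) for *Hoxb3* and 0.37 ± 0.08 (SE, adjusted p = 0.00024) for *Hoxd3*, and between 0.22 and 0.26 for the other 3. Of the 6 calls, *Hoxd3* alone was kept without either replicate in turn. Serotonergic and noradrenergic markers were high in the same arrays, 6 of 6 with a median of 2.77 and a mean level of 9.76 to 10.05, against 6.43 to 7.60 in the forebrain. Markers of cerebellar granule and Purkinje cells were higher in Tg too, 6 of 8 with a median of 1.29 and a mean level of 7.12 to 8.77, against 5.98 to 7.85 in the forebrain, and so were 9 of 10 oligodendrocyte markers, with a median of 1.15. The part of these cell types was not tested.

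In the 5 mesencephalic regions 2 Hox genes were higher (6.06%) and 1 lower (3.03%), below the background of 16.1% and 15.9%. *Hoxb13*, a gene of the caudal end of the HoxB cluster, differed by 0.10 ± 0.03 (SE, adjusted p = 0.012), *Hoxd3* by 0.10 ± 0.04 (SE, adjusted p = 0.036) and *Hoxb6* by -0.13 ± 0.04 (SE, adjusted p = 0.0079). In Cb nucleus 2 were higher and 1 lower (background 16.4% and 16.4%): *Hoxb13* read 5.72 and 5.60, against 5.21 to 5.84 (median 5.48) in the forebrain, *Hoxd8* read as given above, and *Hoxb6* read 5.28 and 5.51, with 1 array below its forebrain range. The differences were 0.18, 0.17 and -0.21. Without replicate 1 of Cb nucleus all 3 calls were lost, with 0.12 (adjusted p = 0.45) for *Hoxb13*, 0.22 (adjusted p = 0.063) for *Hoxd8* and -0.10 (adjusted p = 0.65) for *Hoxb6*, and those of *Hoxb13* and *Hoxd8* were also lost without replicate 2. In the cerebellar cortex (vermis and lobe, 4 arrays) 0 genes were higher, 0 also at an unadjusted p under 0.05 by limma, and 9 lower (27.3%), against 25.2% and 34.9% of all probe sets. The 9 were *Hoxa2*, *Hoxd3*, *Hoxc6*, *Hoxa7*, *Hoxb9*, *Hoxc9*, *Hoxd9*, *Hoxa13* and *Hoxd13*, by -0.13 to -0.28. Their number was 5 without replicate 1 of Cb vermis.

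Within the forebrain the Hox genes varied little. The SD over the 35 regional means was 0.07 to 0.19 with a median of 0.11, against 0.19 for the median of all probe sets, and 21 of 33 passed the F-test for any difference between the regions, where 89.0% of all did. The suprachiasmatic nucleus had the lowest mean of the 35 regions for 21 of the 33 genes, 15 of which passed that test, and it was also the lowest for 17.3% of all probe sets, more than any other forebrain region. The highest mean was found in the piriform cortex for 5 genes and in the mammillary body, the supraoptic nucleus, the ventral subiculum and the posterior amygdala for 4 each. The share of all probe sets with their highest mean in these regions was not computed, so these counts are not read as a result about Hox genes. The mammillary body held the highest forebrain mean of *Hoxc4*, at 7.76, which was 0.58 above the forebrain mean. *Hoxb5* was 0.48 above its forebrain mean in the same region. The F-test for any difference among the 35 regions gave an adjusted p of 1.84e-05 for *Hoxc4* and 0.687 for *Hoxb5*. It does not test the mammillary body itself, which was picked here as the highest region. *Hoxd3* was 0.48 above its forebrain mean in the ventral subiculum.

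Where a gene had several probe sets, they often differed in the size of the difference and at times in the call. Of the 11 such genes 8 had probe sets that disagreed in call in the cord, MVe or Pn, which were *Hoxa3*, *Hoxa4*, *Hoxa5*, *Hoxa9*, *Hoxa10*, *Hoxc5*, *Hoxc6* and *Hoxd8*. In the cord 1 gene was affected, *Hoxa3*, of which 3 probe sets were higher, by 1.22, 0.33 and 0.30, and 1 was not, at 0.05 (adjusted p = 0.509). *Hoxa5* was 3.82 higher in the cord on the chosen probe set and 0.67 on the other, and in Pn 1.93 and 0.16 (adjusted p = 0.138). *Hoxc5* was 2.37, 1.36 and 0.84 higher in the cord and 0.52, 0.23 and 0.00 in MVe, where 1 of the 3 probe sets passed. *Hoxd8* was 2.87 and 2.09 higher in the cord, and *Hoxb3* 2.71 and 1.05 in MVe. *Hoxa9* was 2.41 and 0.25 higher in the cord, and in Pn the call fell to the probe set not chosen (0.21, adjusted p = 0.015). Among the 22 genes with 1 probe set, where no choice was made, 12 were higher in the cord, 5 in MVe and 8 in Pn. The shares of all probe sets higher were 19.2% in the cord, 14.2% in MVe and 20.9% in Pn. Over all 48 probe sets the counts of those higher were 33, 17 and 25.

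Probe sets that name several Hox genes or an antisense transcript were kept apart. The probe set shared by *Hoxb8* and *Hoxb7* read 8.45 and 8.93 in the anterior cord and 9.05 and 11.99 in the posterior cord, against 5.56 to 6.28 (median 5.98) in the forebrain, a cord difference of 3.63 ± 0.15 (SE, adjusted p = 8.5e-28). The second posterior pool was far above the other 3, all of which were above the forebrain, while the probe set of *Hoxb7* alone was -0.08 from the forebrain. The 2 probe sets shared by *Hoxd4* and *Hoxd3* were 0.77 and 0.79 higher in the cord than in the forebrain. In other steps they disagreed. The cord minus MVe was -0.51 on the first (adjusted p = 5.3e-05) and 0.35 on the second (adjusted p = 0.0074). MVe minus Pn was 0.61 (adjusted p = 2.6e-05) and 0.10 (adjusted p = 0.54). One probe set of the antisense gene *Hoxd3os1* read 6.77 and 7.06 in the anterior and 7.19 and 7.72 in the posterior cord, against 4.84 to 5.38 in the forebrain, a difference of 2.07, and the other differed by 0.20. *Hoxb5os* was 0.65 higher in the cord, with 3 of 4 arrays above the forebrain, and neither probe set of *Hoxa11os* passed. The overlap of neighbouring transcripts with each probe set was not examined.

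For the counts of the lists below, the shares of all probe sets higher and lower were 19.2% and 23.5% in the cord, 14.2% and 15.2% in MVe, and 20.9% and 16.6% in Pn. Counts near these shares are not read as a result about a list. Of the Hox cofactors, 8 were measured. In the cord 3 were higher and 3 lower, *Pbx3* by 1.51 and *Meis1* by 1.47 with the largest differences upward, *Meis2* by 0.37, and *Pknox2* and *Pbx2* by -0.33 each and *Meis3* by -0.20 downward. In MVe *Meis1* was 2.23 higher, *Meis2* 1.85 and *Pbx3* 1.03, with 3 higher and 2 lower in all. In Pn 2 were higher, *Meis1* by 1.90 and *Pbx3* by 0.52, and 2 lower. Of 14 genes of retinoic acid synthesis, clearance and response, 3 were higher and 4 lower in the cord, 4 higher and 3 lower in MVe, and 6 higher and 4 lower in Pn. *Aldh1a1*, which makes retinoic acid, was 3.01 higher in the cord, 2.62 in MVe and 3.36 in Pn. *Aldh1a2*, which does so too and is also among the leptomeningeal markers, was 1.21 higher in Pn. Of 17 Polycomb and trithorax genes, which keep Hox genes silent or active, 2 were higher and 8 lower in the cord (median -0.20), with *Kmt2a* at -0.65 and *Rnf2* at -0.59. MVe had 1 higher and 6 lower, and Pn 2 higher and 7 lower. Of 11 measured genes of early patterning along the neuraxis 1 was higher in the cord, *En2* by 0.33, and 2 lower, *Otx2* by -0.55 and *Egr2* by -0.52. MVe had 0 higher and 1 lower, and Pn 3 higher and 2 lower.

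Genes at the edges of the clusters moved with them in part, where the shares of all probe sets are those given above. Of 13 measured, 7 were higher and 1 lower in the cord, 6 higher and 0 lower in MVe, and 6 higher and 1 lower in Pn. *Skap1*, beside HoxB, was 1.62 higher in the cord, *Skap2*, beside HoxA, 1.09 and *Lnpk*, beside HoxD, 0.54, while *Calcoco1* at HoxC was -0.25. Of the 3 ParaHox genes, relatives of the Hox genes, 0 were higher and 2 lower in the cord. Of 15 genes of spinal and hindbrain neurons 10 were higher and 1 lower in the cord, *Slc6a5*, the glycine transporter, by 4.69 on its most variable probe set and *Lbx1* by 1.18, with *Isl1* at -1.20. *Barhl1*, a gene of precerebellar neurons, was 1.52 higher in Pn. Oligodendrocyte markers were higher in the same regions and in Tg: all 10 in the cord (median 2.15, mean level 11.78 to 12.09), 9 of 10 in MVe (median 0.97, 10.49 to 10.66), 9 of 10 in Pn (median 1.61, 11.19 to 11.40) and 9 of 10 in Tg (median 1.15, 10.74 to 10.86), against a mean level of 6.91 to 11.91 in the forebrain. Their part in the Hox values was not tested.

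Over the 48 regional means, the genes other than Hox genes whose pattern was most like the mean pattern of the 21 Hox genes higher in the cord were *Hoxd3os1* (Pearson r = 0.91), *Gm38462* (0.89), *Slc6a5* (0.89), *Prrxl1* (0.87), *Skap1* (0.87), *Gna14* (0.83), *Nmu* (0.81), *Ahnak2* (0.78), *Misp3* (0.78) and *P2rx5* (0.78). These values are given as a description, since all regions share the same fit and the few caudal regions carry most of the pattern. *Hoxd3os1* and *Gm38462* lie within HoxD and *Skap1* beside HoxB. *Skap1* had a mean of 8.59 in the anterior and 8.63 in the posterior cord, 7.11 in MVe and 7.10 in Pn, against 6.99 in the forebrain, and so was high in the cord alone among these. *Slc6a5* is listed here on another probe set than the one behind the difference of 4.69, and this one had 7.44 and 7.43 in the anterior and posterior cord, 7.19 in MVe and 6.53 in Pn, against 5.80 in the forebrain, and was thus high in all of them.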

How the data were processed

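RNA of each region was pooled over the day and hybridized to Affymetrix Mouse Genome arrays, 2 pools per region. The log2 values were made by the authors with RMA (background correction, quantile normalization and summary of each probe set) and used as deposited. The version of RMA is not given in the sources used here. Quantile normalization gives all arrays 1 distribution, with medians of 7.32 to 7.46, so that values are relative to the array. Replicate arrays correlated with r of 0.988 to 0.997, and only 2 arrays per region limit the precision.

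Probe sets were named through the platform annotation, and 64 control probe sets were left out. A linear model with 1 coefficient per region was fitted to 45037 probe sets on 96 arrays with lmFit and eBayes (limma 3.58.1, R 4.3.3; 48 residual and 6.63 prior degrees of freedom). P-values were adjusted over all probe sets by Benjamini-Hochberg, with a threshold of 0.05, and the fit was tested on simulated data. Adjusted p-values in the text are limma's. Each gene stood for 1 probe set, that with the largest SD over the 48 regional means. All Hox genes could be named. Array values were written out for those called in MVe, Pn, Tg or Cb nucleus, those that differed most in the cord in each paralogue group and those whose probe sets disagreed, and of other lists the 3 largest called differences each way. The members and lists were chosen with earlier results of these data known. Both cord parts were collected on the same days by replicate number (correlation of deviations 0.369). It was -0.01 between MVe and Pn, 0.170 between MVe and the anterior cord and 0.151 between MVe and the posterior cord. Figures were drawn with Python 3.11.15 and matplotlib 3.10.9.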

Additional observations from a re-analysis of the deposited data

Results flagged for a closer look

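Tests of the difference itself, by limma, set MVe apart from Pn for 8 Hox genes. The difference, MVe minus Pn on the log2 scale, was 0.91 for *Hoxd3* and 0.87 for *Hoxb3*. It was -2.44 for *Hoxb5*, -1.17 for *Hoxc5*, -0.87 for *Hoxa5*, -0.86 for *Hoxa4*, -0.43 for *Hoxc4* and -0.27 for *Hoxa10*. The same test between the anterior and the posterior cord passed for *Hoxa9* (-1.18), *Hoxb3* (-0.85), *Hoxb6* (-0.79) and *Hoxb9* (-0.44).

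In regions left out of the fit, *Hoxc5* was 0.84 higher in the pineal gland than in the forebrain mean, with arrays at 5.91 and 5.87, both above all 70 forebrain arrays. It was 1 of 33 genes with such values in the pineal gland, and 0 had them in the pituitary and the retina. The share of all probe sets with such values in these regions was not computed, so these counts are not read as a result about Hox genes. Among probe sets outside the 33 genes, the one shared by *Hoxb8* and *Hoxb7* was 3.63 higher in the spinal cord than in the forebrain, 1 of *Hoxd3os1* 2.07, and the 2 shared by *Hoxd4* and *Hoxd3* 0.77 and 0.79. No region had enough arrays for a search for single outlying arrays.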

How the results depend on the processing

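The counts of Hox genes higher in the spinal cord, MVe and Pn stayed within 1.5 times under every alternative except the use of all 48 Hox probe sets, which gave 33 in the cord and 25 in Pn, and 20 for the cord against MVe, since more features were counted. With replicate number as a block, the counts were 21, 12 and 16, no single-gene call changed, and no count moved by over 1.5 times. Leaving out 1 array at a time gave 19 to 20 in the cord, 10 to 12 in MVe, 11 to 14 in Pn, 11 to 14 for the cord against MVe, 6 to 9 for MVe against Pn, 3 to 6 for the anterior against the posterior cord, 18 to 22 in the F-test and 0 to 0 higher in the cerebellar cortex. In Tg it gave 3 to 4, with 3 without replicate 2, where 6 were called.

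In Cb nucleus, where 2 were called, the count was 0 against forebrain regions of the same sampling period and at an adjusted p under 0.01, 1 against the telencephalon only, among probe sets that reached a regional mean of 7, or with the probe set of highest mean, and 0 to 1 without a replicate (0 without replicate 1, 1 without replicate 2). In the mesencephalon, where 2 were called, it was 0 against the same period and at 0.01, 1 against the telencephalon or among probe sets reaching 7, and 0 to 3 without 1 array (0 without IC replicate 1, and 1 without PAG replicate 1, SC replicate 2, VTA replicate 1, VTA replicate 2 or SN replicate 1). In the F-test 13 passed after cyclic loess normalization and 12 among probe sets reaching 7, where 19 genes were tested, against 21. The 9 lower genes of the cerebellar cortex, for which all alternatives were added after seeing the data, were 5 after cyclic loess, 14 over all probe sets and 5 to 12 without 1 array (5 without Cb vermis replicate 1). Unless stated, the cause was not tested.

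Of 1166 values of 97 single-gene calls under alternatives, 1075 kept direction and call, 87 kept direction only and 4 changed sign. *Hoxd8* in MVe was -0.024 without replicate 2 and 0.35 without replicate 1. On the probe set with the highest mean, *Hoxd8* in Cb nucleus was -0.14, *Hoxa3* in Tg -0.055 and *Hoxa5* in MVe against Pn 0.19. These values hold no measure of signal over background, so whether the low forebrain levels of the Hox genes lie above it was not tested.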
